A study of Rattus norvegicus with 19 samples.

Results

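The mitochondrial fatty acid oxidation genes examined here were 33 rat genes that supply carnitine, move fatty acids into mitochondria, oxidise them, form ketone bodies, or regulate these steps in the fasted liver. They were taken by symbol as all probe sets annotated to exactly 1 of the 33 genes, out of 13811 genes with such a probe set. This gave 38 of the 15923 probe sets on the first array type, covering all 33 genes, and 8 of the 15333 on the second, covering 6 genes. Livers of adult rats were profiled on both Affymetrix array types to ask whether PCN (pregnenolone-16α-carbonitrile, a synthetic steroid that activates the pregnane X receptor of rodents) acts on genes apart from drug metabolism. The treated animals had a single intraperitoneal injection of 100 mg/kg PCN, and the controls a single intraperitoneal injection of corn oil, the vehicle. Every animal of both groups had fasted overnight before the injection, and livers were taken 8 h after it. No group without this fast is part of the comparison, and food intake during the 8 h was not measured here. Strain, sex and age in weeks are not given in the sources used here. The labels call the replicates biological, numbered 1 to 5, and the first array type holds 5 arrays per group, the second 5 of PCN and 4 of corn oil (replicate 2 was not analysed there).

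In the fasting liver, fatty acids released from adipose tissue are joined to coenzyme A, exchanged onto carnitine to cross the inner mitochondrial membrane, and shortened by cycles of beta-oxidation. Electrons from the first step of each cycle reach the respiratory chain through electron transfer flavoprotein, and much of the acetyl-CoA leaves the liver as ketone bodies. PPAR alpha, a nuclear receptor for fatty acids, drives many of these genes during a fast.

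Values were taken as log2 expression per probe set, and each difference is PCN minus corn oil on that scale. The difference of -0.88 found for Bbox1 is thus 1.85-fold less signal. A probe set was called when its adjusted p in limma was below 0.05. On the first array type 37 of the 38 probe sets were bright enough to be tested, and 2 of them were lower after PCN (Bdh2 and Acsm5) and 0 higher. That is 5.41% called lower, where 0.945% of all 11106 tested probe sets were called lower and 2.31% higher. The members were chosen with earlier results of these data known, so a share above the background is not an independent test. At an unadjusted p below 0.05 in limma, 10 member probe sets (27.0%) were lower and 0 higher, against 6.71% lower and 10.98% higher over the array. On the second array type 1 of 7 tested probe sets was called lower (Bbox1), which is 14.3% against a background of 1.64%, and 0 were called higher, where 3.76% of the array was. At an unadjusted p below 0.05 in limma, 1 of the 7 was lower and 1 higher (Acaa2), 14.3% each, which is about the share of the whole array, 14.1% lower and 13.2% higher. The median difference over the 32 tested genes of the first array type was -0.18, beside 5.54e-05 over all tested probe sets, with 24 genes below 0 and 8 above. Leaving out PCN replicate 4 moved that median to -0.08, PCN replicate 1 to -0.09 and corn oil replicate 3 to -0.11. In whole liver, fewer cells of a type and less RNA per cell cannot be told apart.

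**Figure D1:**
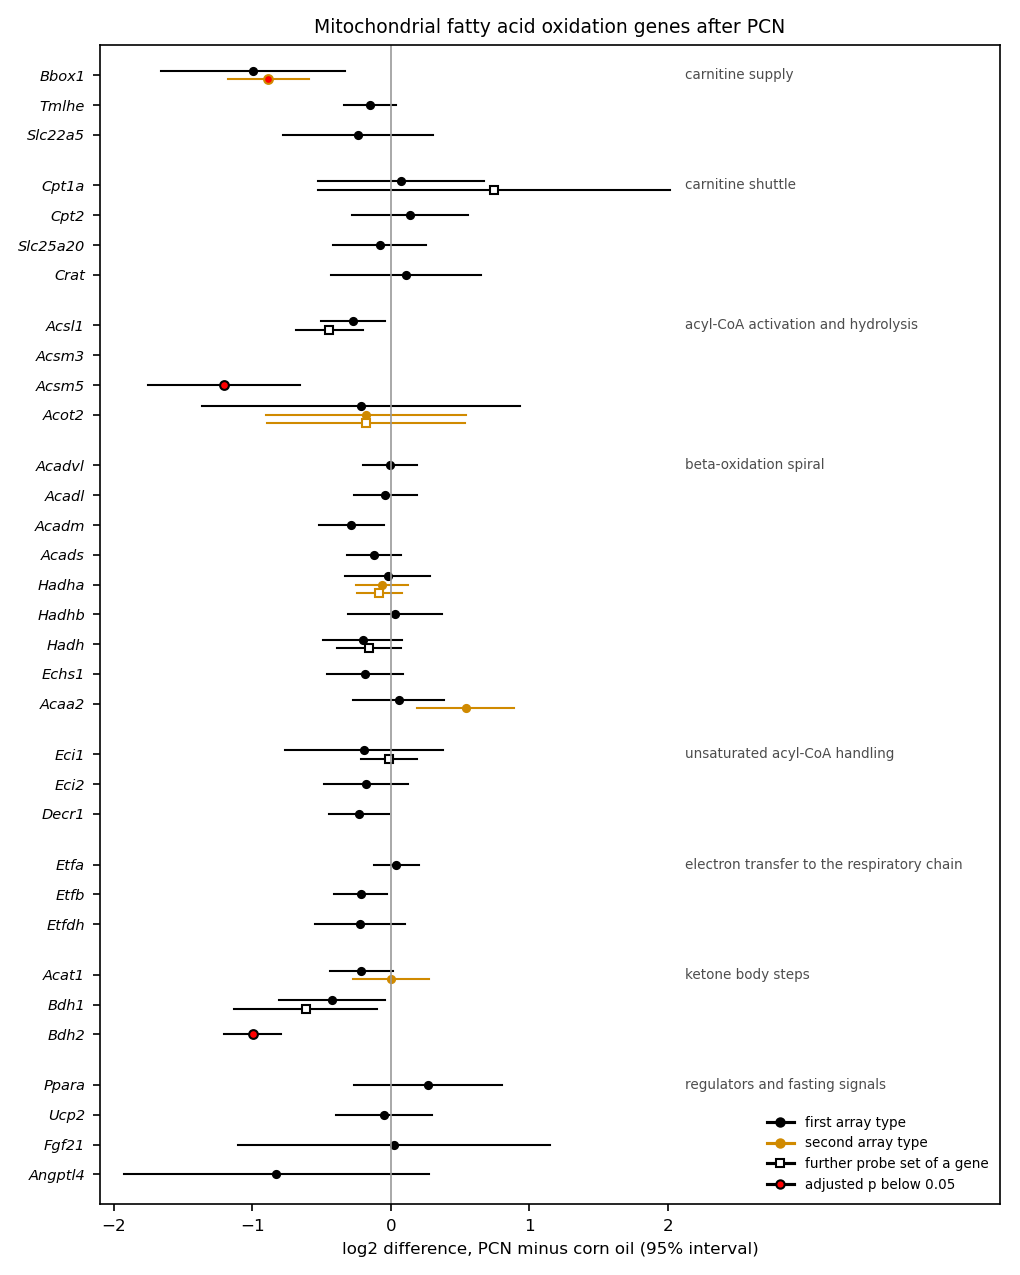
Difference between PCN and corn oil (log2, x axis) for every tested member probe set, with its 95% interval from limma, by gene and role (y axis). Red marks an adjusted p below 0.05: Bbox1 on the second array type (-0.88), Acsm5 (-1.20) and Bdh2 (-0.996); open squares are further probe sets of a gene, and Acsm3 was too dim to be tested.

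The arrays were alike with 1 exception. On the first array type corn oil replicate 2 had a mean correlation of 0.953 with the other arrays, whose own values ran from 0.966 to 0.979. Its 3′ minus 5′ difference, a measure of RNA integrity, was 2.28 for the Actb control probe sets and 2.02 for Gapdh, whereas the other 9 arrays lay at 0.41 to 0.56 and 0.56 to 0.85. Arrays of the second type had differences of 0.34 to 0.54 and 0.60 to 0.87 on every array. Of the 10 hepatocyte markers listed (albumin, Apoa1, Cps1 and others) 9 were measured on the first array type. The log2 of their summed linear signals, here called the summed level, was 17.25 to 17.38 on corn oil arrays. On PCN arrays it was 17.24 to 17.40. The marker lists covered hepatocytes, other liver cell types, blood, fat and muscle. In limma 0 of their 39 tested genes were called on the first array type and 0 of 15 on the second. At an unadjusted p below 0.05 in limma there were 7 of the 39 and 6 of the 15. Over all tested probe sets there were 1964 of 11106 and 2919 of 10693. On the second array type the share among markers was thus above that of the array. Skeletal muscle had 0 tested genes on both array types, and red cells and neutrophils had 0 on the second. On the first array type the 7 were 2 hepatocyte, 2 stellate cell, 2 red cell and 1 neutrophil markers. Summed levels there, corn oil then PCN, were 14.10 to 14.45 and 13.62 to 14.28 for red cells. They were 12.25 to 12.74 and 12.62 to 12.92 for stellate cells, and 7.31 to 7.74 and 7.59 to 8.62 for neutrophils. The 7 lymphocyte markers measured there overlapped, at 9.51 to 10.12 and 9.80 to 10.08. Where Bbox1 was called, on arrays of the second type, the summed level of the 2 lymphocyte markers measured (Cd3e and Cd8a) did not overlap, at 8.00 to 8.10 on corn oil arrays and 7.79 to 7.95 on PCN arrays. The 1 hepatocyte marker measured there, Hnf4a, read 11.74 to 12.15 and 12.15 to 12.45. Summed levels were 10.77 to 11.38 and 11.16 to 12.07 for 3 macrophage markers, 11.04 to 11.28 and 11.21 to 11.61 for 4 endothelial markers, and 9.65 to 9.97 and 9.85 to 10.68 for 2 adipocyte markers. The part of these levels in the results for Bbox1, Bdh2 and Acsm5 was not tested.

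In carnitine supply, Bbox1 was called lower after PCN on the second array type. It encodes gamma-butyrobetaine hydroxylase, which makes carnitine in the last step of its synthesis. On the second array type its probe set read 10.39, 10.62, 10.31 and 10.49 on corn oil arrays 1, 3, 4 and 5, and 9.56, 9.17, 9.82, 9.78 and 9.51 on PCN arrays 1 to 5. Every PCN array lay below every corn oil array, a separation in the lower direction that 5.32% of probe sets on this array type showed. Bbox1 fell by 0.88 (SE 0.13, 95% interval -1.17 to -0.59, limma adjusted p = 0.00638), or 1.85-fold.

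On the first array type, where Bbox1 has a probe set from another accession, the corn oil arrays 1 to 5 read 11.38, 9.76, 11.22, 11.25 and 11.09, and the PCN arrays 9.79, 9.19, 10.24, 10.17 and 10.34. The groups overlapped through corn oil replicate 2 alone, the array with the high 3′ minus 5′ differences. The means were 10.94 ± 0.67 (SD, n = 5) and 9.94 ± 0.47 (SD, n = 5), and the difference of -0.995 (SE 0.31) did not pass the test (limma adjusted p = 0.106). Without corn oil replicate 2 it was -1.29 (SE 0.20, limma adjusted p = 0.00655). With any other array of this type left out, Bbox1 did not pass (adjusted p 0.117 to 0.222). It passed in 3 of 24 alternatives. The others were array weights (-1.15, limma adjusted p = 0.00419) and the replicate number as a block (limma adjusted p = 0.02).

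The other carnitine genes did not pass the test. Tmlhe, the trimethyllysine hydroxylase at the first step of carnitine synthesis, read 8.40 to 8.66 on corn oil arrays and 8.14 to 8.44 on PCN arrays, a difference of -0.15 (SE 0.09, limma adjusted p = 0.407). Slc22a5, the carnitine transporter of the plasma membrane, read 10.04 to 10.85 and 9.39 to 10.65, a difference of -0.24 (SE 0.25, adjusted p = 0.667). Leaving out PCN replicate 4 or 1 moved the Slc22a5 difference to -0.063 or -0.105. The median of the 3 carnitine supply genes was the Slc22a5 value, -0.24, and only Bbox1 was called, and only on the second array type.

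**Figure D2:**
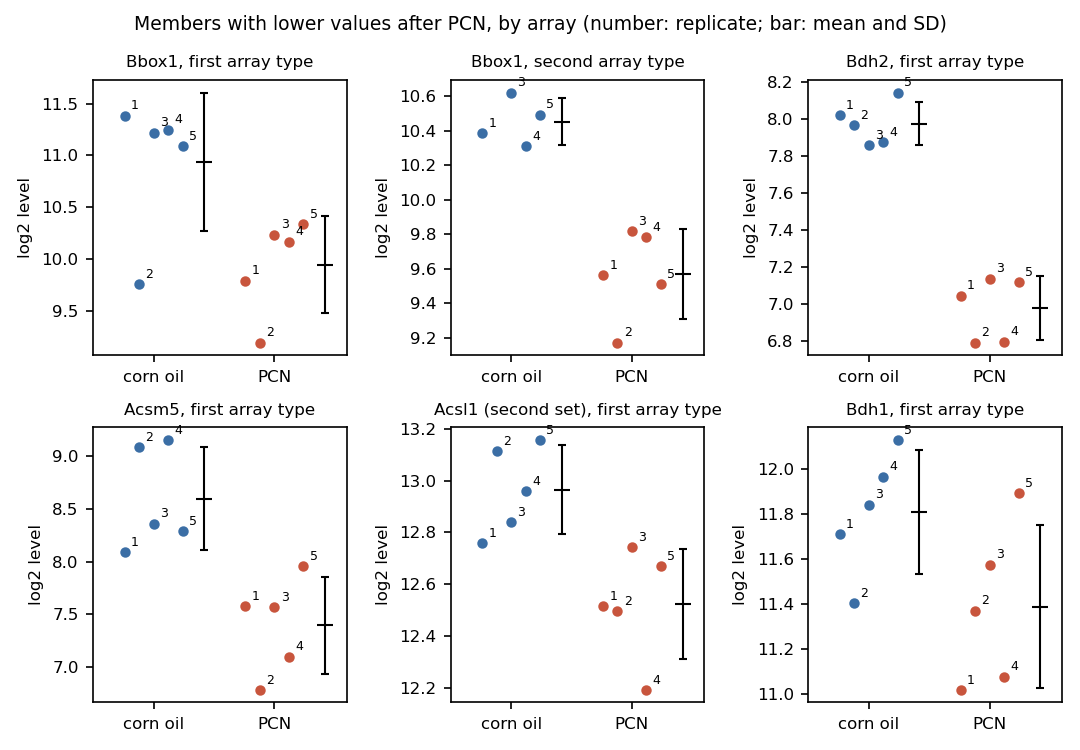
Log2 level (y axis, not starting at 0) on each array of Bbox1 on both array types and of Bdh2, Acsm5, Acsl1 and Bdh1 on the first, with replicate numbers beside the points and bars for mean and SD. The groups do not overlap for Bbox1 on the second array type, Bdh2, Acsm5 and Acsl1 (its second probe set); corn oil replicate 2 lies at 9.76 for Bbox1 on the first, where the other corn oil arrays read 11.09 to 11.38.

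Ketone body steps held the member with the smallest adjusted p, Bdh2, a cytosolic dehydrogenase of the short-chain family that can act on beta-hydroxybutyrate. Its corn oil arrays 1 to 5 read 8.02, 7.97, 7.86, 7.87 and 8.14, and its PCN arrays 7.04, 6.79, 7.13, 6.79 and 7.12. The highest PCN array (7.13) lay well below the lowest corn oil array (7.86), and neither group spread beyond an SD of 0.17. The difference was -0.996 (SE 0.09, 95% interval -1.20 to -0.79, limma adjusted p = 0.000303), and the call was kept in all 23 alternatives in which the probe set was tested. A brightness filter at the 50th percentile left it out as too dim. Its PCN arrays read not far above 6.67, the cut that the main filter set on the mean of a probe set.

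Bdh1, the mitochondrial dehydrogenase that interconverts acetoacetate and beta-hydroxybutyrate, had 2 probe sets and neither passed the test. The first read 11.71, 11.40, 11.84, 11.97 and 12.13 on corn oil arrays 1 to 5 and 11.02, 11.37, 11.57, 11.08 and 11.89 on PCN arrays. Its groups overlapped, PCN replicates 1 and 4 were the lowest, and the difference was -0.42 (SE 0.18, 95% interval -0.81 to -0.04, limma adjusted p = 0.238). The second probe set of Bdh1 read 10.97, 11.27, 11.02, 11.09 and 11.48 on corn oil arrays and 10.15, 10.57, 11.02, 9.79 and 11.21 on PCN arrays. PCN replicates 1 and 4 were again the lowest, with a difference of -0.61 (SE 0.24, adjusted p = 0.200).

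Acat1, the mitochondrial thiolase that joins acetyl-CoA units on the way to ketone bodies, read 11.34 to 11.86 on corn oil arrays and 11.17 to 11.41 on PCN arrays of the first array type. Its difference there was -0.21 (SE 0.10, limma adjusted p = 0.315), and on the second array type 0.00 (SE 0.13, 95% interval -0.27 to 0.28, adjusted p = 0.994). Over the 3 ketone genes the median was -0.42, with 1 called.

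Acyl-CoA activation and hydrolysis held the other called gene. Acsm5 encodes a mitochondrial acyl-CoA synthetase that activates medium-chain acids. Its corn oil arrays 1 to 5 read 8.09, 9.09, 8.36, 9.16 and 8.29, and its PCN arrays 7.58, 6.78, 7.57, 7.10 and 7.96. Every PCN array was below every corn oil array, with PCN replicate 5 at 7.96 next to corn oil replicate 1 at 8.09. Acsm5 fell by 1.20 (SE 0.25, 95% interval -1.75 to -0.65, limma adjusted p = 0.0266), or 2.30-fold. The call ended without corn oil replicate 4 (adjusted p = 0.0673) and without PCN replicate 1 (0.0533), 3 (0.0538) or 4 (0.0736), with the replicate number as a block (0.0875) and in the unmoderated test (0.106), although the difference stayed between -1.34 and -1.05 with any array left out.

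Acsl1, the main long-chain acyl-CoA synthetase of liver, lay at the edge of the threshold. Its second probe set, with the lower mean, read 12.76, 13.11, 12.84, 12.96 and 13.16 on corn oil arrays 1 to 5 and 12.52, 12.50, 12.74, 12.19 and 12.67 on PCN arrays. The groups did not overlap, though corn oil replicate 1 and PCN replicate 3 lay close together, and the difference was -0.44 (SE 0.11, 95% interval -0.69 to -0.20, limma adjusted p = 0.053). It passed in 7 of 24 alternatives, without corn oil replicate 1 among them (adjusted p = 0.0456).

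The first Acsl1 probe set, from the same accession, read 13.00, 13.11, 13.00, 13.13 and 13.35 on corn oil arrays and 12.77, 12.83, 13.15, 12.55 and 12.94 on PCN arrays. These groups overlapped through PCN replicate 3, and the difference was -0.27 (SE 0.11, limma adjusted p = 0.207). The probe set of Acsl1 on the second array type was too dim to be tested, at 4.07 to 4.38 and 3.93 to 4.30. With Bdh2 and Acsm5, Acsl1 brought the probe sets of the first array type whose groups did not overlap to 3 of 37, all lower, where 2.05% of tested probe sets had non-overlapping groups in that direction.

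Acot2, a mitochondrial thioesterase that splits acyl-CoA back to the free acid, varied more among animals than between treatments. On the first array type it read 7.68, 6.17, 8.68, 8.67 and 9.001 on corn oil arrays 1 to 5 and 6.86, 8.47, 8.59, 6.94 and 8.26 on PCN arrays. The second array type gave 9.32, 10.53, 10.27 and 10.62 on corn oil arrays 1, 3, 4 and 5 and 9.59, 10.82, 10.52, 9.24 and 9.83 on PCN arrays for the first of a pair of probe sets. In both, corn oil replicate 1 and PCN replicates 1 and 4 read low, and corn oil replicate 2 was the lowest on the first.

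Its differences were -0.22 (SE 0.53, limma adjusted p = 0.864) on the first array type and -0.18 in both probe sets of the second (adjusted p = 0.746 and 0.744). Without corn oil replicate 2 the first was -0.68 (SE 0.39, adjusted p = 0.359). Acsm3, a medium-chain synthetase of the same family as Acsm5, was too dim to be tested, at 4.998 to 5.28 on corn oil arrays and 4.81 to 5.01 on PCN arrays.

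The promoters of the 3 called genes are shown because pregnane X receptor and PPAR alpha both bind DNA through repeats of the half-site AGGTCA. Each line gives the 250 bases before a transcription start in RefSeq's annotation of the rat assembly GRCr8, from 5′ to 3′ on the gene's strand, with any AGGTCA on either strand in capitals. Bbox1 has a pair of annotated starts, on the minus strand at chr3:117326065-117326314 and chr3:117317638-117317887. Bdh2 lies on the plus strand at chr2:226376106-226376355 and Acsm5 on the plus strand at chr1:183302259-183302508.
Bbox1, upstream start: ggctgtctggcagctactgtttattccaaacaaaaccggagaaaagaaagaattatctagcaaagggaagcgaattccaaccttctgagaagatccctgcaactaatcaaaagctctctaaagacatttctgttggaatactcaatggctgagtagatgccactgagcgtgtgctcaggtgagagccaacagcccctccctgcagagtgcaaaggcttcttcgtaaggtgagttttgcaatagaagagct
Bbox1, downstream start: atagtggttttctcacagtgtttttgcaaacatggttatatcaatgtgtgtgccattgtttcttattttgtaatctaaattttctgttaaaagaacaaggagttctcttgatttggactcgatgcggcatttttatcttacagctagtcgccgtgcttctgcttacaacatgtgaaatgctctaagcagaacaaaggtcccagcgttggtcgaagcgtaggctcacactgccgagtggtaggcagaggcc
Bdh2: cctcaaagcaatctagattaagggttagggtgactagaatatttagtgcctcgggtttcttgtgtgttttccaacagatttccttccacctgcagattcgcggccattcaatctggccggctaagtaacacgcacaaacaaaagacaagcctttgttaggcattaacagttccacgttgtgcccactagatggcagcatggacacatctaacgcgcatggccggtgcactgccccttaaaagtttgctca
Acsm5: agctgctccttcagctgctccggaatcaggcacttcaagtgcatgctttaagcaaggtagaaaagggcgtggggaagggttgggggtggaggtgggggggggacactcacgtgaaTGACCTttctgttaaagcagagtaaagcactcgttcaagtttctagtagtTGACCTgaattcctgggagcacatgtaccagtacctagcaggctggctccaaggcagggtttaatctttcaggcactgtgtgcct
The Acsm5 window holds 2 half-sites on the opposite strand (TGACCT), 135 and 85 bases before the start, and the Bdh2 window and both Bbox1 windows hold none. A window was found for 30 of the 33 members, and the half-site stands in 5 of them (Acadvl, Acsm3, Acsm5, Echs1 and Eci1), where 14.1% of all 33469 windows of this length hold it. The direct repeat AGGTCANAGGTCA, read on both strands, is in 0 member windows and in 0.0508% of all. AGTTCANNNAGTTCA is in 0 member windows and in 2 of all. These are matches of letters and not measured binding, and each repeat also contains its own half-sites.

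The carnitine shuttle did not pass the test at any gene. Cpt1a encodes the outer-membrane carnitine palmitoyltransferase that controls entry of long-chain fatty acids into mitochondria. Its first probe set read 11.87, 12.87, 13.14, 13.14 and 13.30 on corn oil arrays 1 to 5 and 12.61, 13.32, 13.44, 12.33 and 13.02 on PCN arrays. The groups overlapped over most of their range, and the difference was 0.08 (SE 0.28, 95% interval -0.52 to 0.68, limma adjusted p = 0.909).

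The second Cpt1a probe set read 11.58, 9.55, 12.75, 12.97 and 13.01 on corn oil arrays and 12.16, 13.12, 13.27, 11.97 and 13.08 on PCN arrays. Its difference of 0.74 (SE 0.58, limma adjusted p = 0.552) came to 0.14 (SE 0.34, adjusted p = 0.839) without corn oil replicate 2. That array read 9.55 here and 12.87 in the other Cpt1a probe set, where it did not stand apart from its group.

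Cpt2, which returns the acyl group to coenzyme A on the matrix side, read 11.01 to 11.79 on corn oil arrays and 11.09 to 12.08 on PCN arrays, a difference of 0.14 (SE 0.19, limma adjusted p = 0.75). Slc25a20, the carrier that exchanges acylcarnitine for carnitine, read 10.20 to 10.64 and 9.81 to 10.71, a difference of -0.08 (SE 0.15, adjusted p = 0.829). Crat, the carnitine acetyltransferase for short acyl groups, read 9.66 to 10.61 and 9.73 to 11.11, a difference of 0.11 (SE 0.25, adjusted p = 0.853). The median of the 4 shuttle genes was 0.09, with 1 below 0.

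The beta-oxidation spiral had 9 genes on the first array type, with differences from -0.29 to 0.06, a median of -0.04 and 0 called. For several of them the interval was narrow. Acadvl, the dehydrogenase for very long chains, read 11.65 to 11.93 on corn oil arrays and 11.61 to 11.91 on PCN arrays, a difference of -0.01 (SE 0.09, 95% interval -0.20 to 0.19, limma adjusted p = 0.973). Acadl, the long-chain dehydrogenase, differed by -0.04 (SE 0.11, 95% interval -0.27 to 0.19, adjusted p = 0.875). Acads, the short-chain dehydrogenase, differed by -0.12 (SE 0.09, 95% interval -0.31 to 0.08, adjusted p = 0.541).

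Acadm, the medium-chain dehydrogenase, had the lowest difference of the spiral. It read 13.03, 12.91, 13.41, 13.35 and 13.41 on corn oil arrays 1 to 5 and 12.80, 13.07, 13.05, 12.80 and 12.96 on PCN arrays. Corn oil replicates 1 and 2 were the lowest of their group and overlapped the PCN arrays, and the difference was -0.29 (SE 0.11, 95% interval -0.52 to -0.05, limma adjusted p = 0.188). Without corn oil replicate 2 it was -0.36 (adjusted p = 0.0603).

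The trifunctional protein, which carries out the later steps of the spiral on long chains, is made of Hadha and Hadhb. Hadha read 11.80 to 12.40 on corn oil arrays and 11.82 to 12.44 on PCN arrays, a difference of -0.02 (SE 0.14, limma adjusted p = 0.948), and its 2 probe sets on the second array type differed by -0.06 and -0.08 (adjusted p = 0.644 and 0.486). Hadhb differed by 0.03 (SE 0.15, adjusted p = 0.934). Both subunits thus had differences near 0, with intervals of -0.33 to 0.29 for Hadha and -0.31 to 0.37 for Hadhb on the first array type.

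Among the enzymes for shorter chains, Hadh, the hydroxyacyl-CoA dehydrogenase, differed by -0.20 (SE 0.13, limma adjusted p = 0.457), with -0.16 in its further probe set (adjusted p = 0.487). Echs1, the enoyl-CoA hydratase, differed by -0.18 (SE 0.13, adjusted p = 0.492), and PCN replicate 2 at 10.99 was its lowest array. Neither gene separated the groups.

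Acaa2, the thiolase that releases acetyl-CoA, gave different results on the 2 array types. On the first it read 12.93, 13.09, 13.48, 13.38 and 13.31 on corn oil arrays 1 to 5 and 13.06, 13.60, 13.55, 12.86 and 13.41 on PCN arrays, a difference of 0.06 (SE 0.15, 95% interval -0.27 to 0.38, limma adjusted p = 0.875). On the second a probe set from another accession read 7.78, 8.22, 8.14 and 8.69 on corn oil arrays 1, 3, 4 and 5 and 8.56, 8.98, 8.91, 8.76 and 8.53 on PCN arrays. The groups overlapped through corn oil replicate 5, and the difference was 0.54 (SE 0.16, 95% interval 0.19 to 0.89, adjusted p = 0.0716). It passed without corn oil replicate 5 or PCN replicate 5, and the difference between the array types was not tested.

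Unsaturated fatty acids need isomerases and a reductase before they can finish the spiral. Decr1, the dienoyl-CoA reductase, read 12.87, 13.04, 12.98, 13.02 and 13.06 on corn oil arrays 1 to 5 and 12.56, 13.01, 12.89, 12.48 and 12.88 on PCN arrays. PCN replicates 1 and 4 were the lowest of the 10 arrays and the others lay close together, with a difference of -0.23 (SE 0.10, limma adjusted p = 0.261). Eci1, an enoyl-CoA isomerase, had the same pair lowest, at 12.66 and 12.37 against 13.24 to 13.75 on the other PCN arrays and 12.80 to 13.67 on corn oil arrays.

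The Eci1 difference was -0.19 (SE 0.26, limma adjusted p = 0.743), and -0.01 (SE 0.09) in a further probe set. Eci2, an isomerase of mitochondria and peroxisomes, read 11.66 to 12.08 on corn oil arrays and 11.41 to 11.95 on PCN arrays, a difference of -0.18 (SE 0.14, adjusted p = 0.547). All 3 genes lay below 0 and 0 were called.

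Electron transfer to the respiratory chain uses the flavoprotein subunits Etfa and Etfb and the dehydrogenase Etfdh. Etfb read 12.67, 12.83, 12.65, 12.57 and 12.47 on corn oil arrays 1 to 5 and 12.19, 12.41, 12.51, 12.49 and 12.50 on PCN arrays, a difference of -0.22 (SE 0.09, 95% interval -0.41 to -0.03, limma adjusted p = 0.216). PCN replicate 1 was the lowest and corn oil replicate 5 lay within the PCN range. Its partner Etfa differed by 0.04 (SE 0.07, 95% interval -0.12 to 0.20, adjusted p = 0.817), the narrowest standard error of the tested members on this array type. Etfdh differed by -0.22 (SE 0.15, adjusted p = 0.478).

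Among regulators and fasting signals the animals of a group lay far apart. Angptl4, a secreted inhibitor of lipoprotein lipase and a PPAR alpha target, read 10.57, 11.67, 11.57, 11.43 and 11.77 on corn oil arrays 1 to 5 and 9.18, 11.45, 11.58, 9.15 and 11.53 on PCN arrays. PCN replicates 1 and 4 stood below every other array, and the remaining PCN arrays lay within the range of corn oil arrays 2 to 5. The means were 11.40 ± 0.48 (SD, n = 5) and 10.58 ± 1.29 (SD, n = 5), a difference of -0.82 (SE 0.51, 95% interval -1.93 to 0.28, limma adjusted p = 0.439).

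Fgf21, a hormone that the fasting liver secretes under PPAR alpha, read 6.79, 7.84, 8.89, 8.44 and 8.72 on corn oil arrays and 7.04, 8.44, 9.38, 6.93 and 8.998 on PCN arrays. The same PCN pair and corn oil replicate 1 were low, and the difference was 0.02 (SE 0.52, 95% interval -1.10 to 1.15, limma adjusted p = 0.986). Ppara itself read 8.44, 7.27, 8.15, 8.38 and 8.46 on corn oil arrays and 8.07, 9.03, 8.38, 7.99 and 8.58 on PCN arrays. Its difference of 0.27 (SE 0.25, adjusted p = 0.615) was 0.05 without corn oil replicate 2, the lowest array. Ucp2, an inner-membrane carrier, differed by -0.05 (SE 0.16, adjusted p = 0.904).

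**Figure D3:**
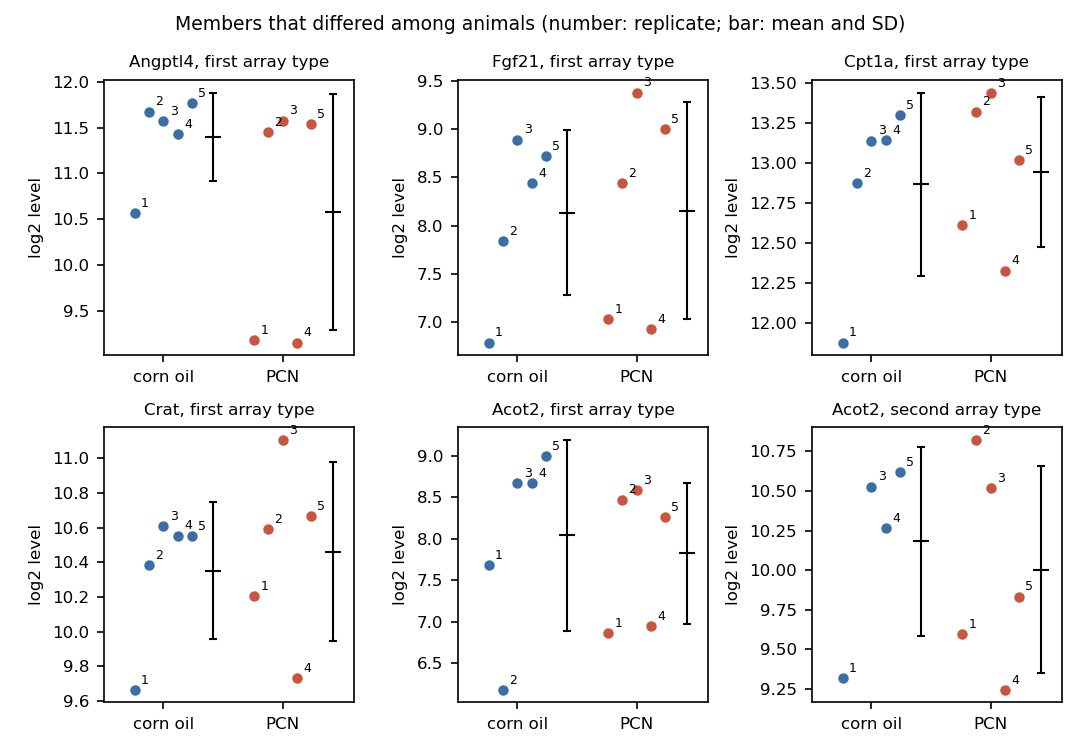
Log2 level (y axis, not starting at 0) on each array of Angptl4, Fgf21, Cpt1a, Crat and Acot2, with replicate numbers beside the points and bars for mean and SD. PCN replicates 1 and 4 are the lowest 2 of the 5 PCN arrays in every panel, down to 9.18 and 9.15 for Angptl4, and corn oil replicate 1 is the lowest or next to lowest of its group.

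This pattern, noticed after the values were seen, ran through the pathway. PCN replicates 1 and 4 were the lowest 2 of 5 PCN arrays in 21 of the 32 tested genes (65.6%), against 11.7% of all tested probe sets of the first array type. Corn oil replicates 1 and 2 were the lowest 2 of their group in 16 of 32 genes (50%), against 16.5%. On the second array type PCN replicates 1 and 4 were lowest in 2 of 5 genes, against 10.8%. The pattern was not confined to the members. On the first array type the further pathway and fasting genes Pdk4, Cyp4a1, Ehhadh and Pck1 had the same lowest pair, whereas Acsl4, Pdk2 and Acot13 did not. The called members did not follow the pattern. For Bdh2 and Acsm5 the lowest PCN arrays were replicates 2 and 4, and for Bbox1 on the second array type 2 and 5. The part of this spread in the differences between treatments was not tested.

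**Figure D4:**
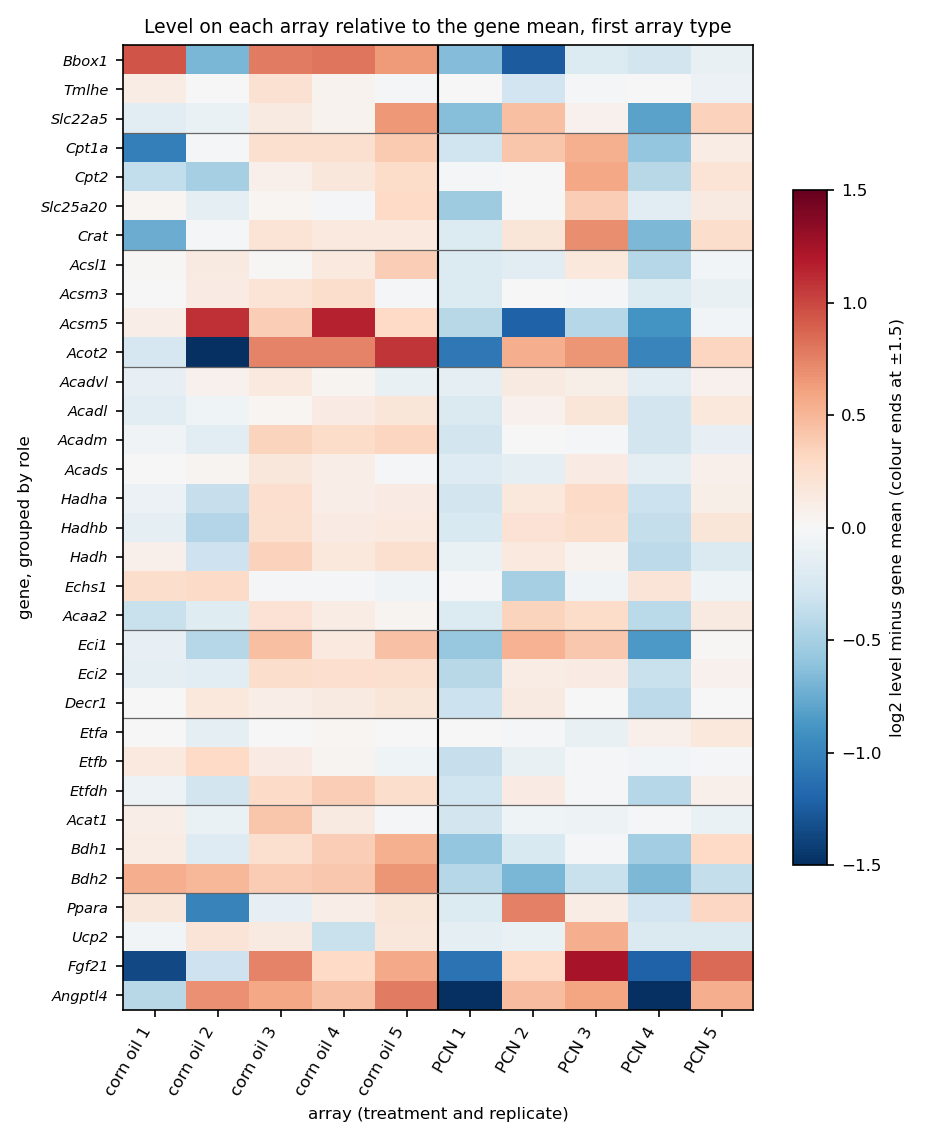
Level of each member on each of the 10 arrays of the first type, as log2 level minus the gene's mean over all arrays (colour, cut at plus and minus 1.5), with genes grouped by role and arrays by treatment. The columns of PCN replicates 1 and 4 are blue for most genes, while Bbox1, Acsm5 and Bdh2 lie below the gene mean on every PCN array. For Acsm5 and Bbox1, PCN replicate 5 lies so close to the gene mean that it is nearly white. Corn oil replicate 2 is blue for Bbox1, Acot2 and Ppara.

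A further 85 genes of fatty acid handling, carnitine, ketone bodies and the PPAR alpha response were counted beside the members. On the first array type 57 were tested, of which 1 was higher and 2 lower (5.26% called, where 3.25% of all tested probe sets were), with 39 below 0 and a median of -0.06. Acot13, a thioesterase found at mitochondria, had 8.49 ± 0.19 (SD, n = 5) in corn oil and 7.68 ± 0.11 (SD, n = 5) after PCN, and fell by 0.81 (SE 0.10, limma adjusted p = 0.00154), or 1.76-fold. Crot, the peroxisomal carnitine octanoyltransferase, went from 10.78 ± 0.55 to 9.44 ± 0.65 and fell by 1.34 (SE 0.32, adjusted p = 0.0431), with PCN replicates 1 and 4 lowest. Crot on the second array type differed by -0.37 (limma adjusted p = 0.0815) and was not called. Acot13 stayed past the threshold in all 24 alternatives, whereas Crot lost its call on the first array type in 8 of 10 fits that left out an array (highest adjusted p 0.104, with PCN replicate 4 out).

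Slc16a12, a transporter of the monocarboxylate family, rose by 0.74 (SE 0.16, limma adjusted p = 0.0279), from 10.37 ± 0.33 to 11.11 ± 0.20 (SD, n = 5 each). Leaving out 1 array ended that call in 7 of 10 cases, and its adjusted p reached 0.0782 with corn oil replicate 4 out. On the second array type 17 of these genes were tested, and 1 was higher and 1 lower (11.8%, background 5.4%). Ppargc1a, a coactivator of mitochondrial and fasting genes, fell by 0.58 (SE 0.13, adjusted p = 0.0285), and Lpin2, a phosphatidate phosphatase, rose by 0.68 (SE 0.17, adjusted p = 0.0423). These calls also ended in 6 of 9 and 7 of 9 fits without 1 array, and reached adjusted p of 0.0929 and 0.124, each with corn oil replicate 4 out.

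The PPAR alpha targets Pdk4 and Cyp4a1 did not pass the test. Pdk4 is the kinase that spares glucose by shutting pyruvate dehydrogenase. On the first array type it ranged over 7.73 to 11.29 on corn oil arrays and 8.81 to 11.95 on PCN arrays. The difference was 0.45 (SE 0.70, limma adjusted p = 0.785), and 0.09 on the second array type (SE 0.57, adjusted p = 0.935). Cyp4a1, a microsomal fatty acid hydroxylase, differed by -0.15 (SE 0.23, adjusted p = 0.783).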

How the data were processed

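Liver RNA was measured on 10 arrays of a first and 9 of a second Affymetrix type. The deposited expression values, 1 per probe set and array, were taken as log2. The submitters' processing notes name MAS5 without a version, and the summarization and normalization behind the values are not given in the sources used here. The base of the logarithm was inferred to be 2, since 15.2, the highest value, is above what a natural log of a 16-bit scan can reach (11.1).

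Probe sets were named from GEO's platform annotation, with symbols updated by gene identifier to RefSeq's GRCr8 annotation. Each array type was analysed alone, since their scales differ. Control probe sets and those averaging under the 30th percentile (6.67 and 5.51) were left out, and limma 3.58.1 in R 4.3.3 compared PCN with corn oil, with moderated variances and an intensity trend. Benjamini-Hochberg adjustment ran over 11106 and 10693 probe sets, with a threshold of 0.05. The fit was tested on simulated data. The number of arrays limits the precision.

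All members are named. A gene with several probe sets of an array type counts through the one with the highest mean, and further pathway genes are named where called or fixed by name. Alternatives covered filters, scalings, pseudocounts, variance models, array weights, the replicate number as a block, and leaving out each array. The members and lists were chosen with earlier results of these data known. The labels say nothing of litter, cage or hybridization batch. That the letters a and b of a title stand for the array types was checked against the files.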

Additional observations from a re-analysis of the deposited data

Results flagged for a closer look

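Of 92 groups of arrays (1 probe set in 1 treatment), 7 held an array far from the rest, and chance alone gives such an array in about 5% of groups. In 3 of the 7 it was, on the first array type, corn oil replicate 2, the array with the high 3′ minus 5′ differences. It read 9.76 for Bbox1 (other corn oil arrays 11.09 to 11.38), 11.69 for Etfa (11.82 to 11.85) and 7.27 for Ppara (8.15 to 8.46). Corn oil replicate 1 read 9.66 for Crat (10.39 to 10.61) and 10.57 for Angptl4 (11.43 to 11.77). PCN replicate 1 read 11.17 for Acat1, below 11.35 to 11.41 on the other PCN arrays. PCN replicate 3 read 10.28 for Ucp2, above 9.52 to 9.64 on the others.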

How the results depend on the processing

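The 2 member probe sets lower on the first array type became 5 with array weights and 1 in the unmoderated test, and 1 to 3 when each array was left out in turn. The count of higher ones stayed at 0 in all alternatives there. On the second array type the 1 lower probe set became 3 when arrays were centred on 100 probe sets that both array types share and 0 in the unmoderated test (Bbox1 adjusted p = 0.0648 in limma without moderation), and stayed 1 with each array left out. The 0 higher became 1 with array weights (Acaa2) and ran from 0 to 1 with each array left out. That centring moved the median of all probe sets of the second array type to -0.31, and that of the members to -0.34. No called member changed sign. Among the 35 uncalled member probe sets of the first array type, 6 changed sign under some scaling and 12 with some array left out. The cause of these moves was not tested.

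Over whole array types the 361 and 577 calls became 1051 and 1475 with array weights, 104 and 46 unmoderated, 154 to 447 and 84 to 1477 with each array left out, and, on the second, 875 with a trimmed mean and 6493 with the shared probe sets. Of the calls, 70.9% were higher on the first array type, and 45.9%, 57.7% and 59.3% with the shared probe sets, quantile scaling and the trimmed mean. On the second 69.7% were higher, and 87.8%, 45.4% and 3.23% with median centring, the trimmed mean and the shared probe sets. Deviations of same-numbered replicates were at most weakly correlated, with mixed signs on the first array type (-0.301 to 0.284) and small positive values on the second (0.02 to 0.201). With the replicate number as a block the array types gave 239 and 203 calls, the members still 2 and 1 lower, with Acsm5 at adjusted p = 0.0875 and Bbox1 of the first array type at 0.02 in limma.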

Other observations

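Probe sets annotated to more than 1 gene were kept out of the members, and 2 of them name a member. The probe set of Eci2 and Eci3 read 11.66 ± 0.18 (SD, n = 5) in corn oil and 11.79 ± 0.18 (SD, n = 5) after PCN, a difference of 0.13 (limma adjusted p = 0.592). The probe set of Acot1 and Acot2 ranged from 7.24 to 9.77 on corn oil arrays and from 7.56 to 9.41 on PCN arrays, a difference of -0.26 (adjusted p = 0.836). Among the further pathway genes, Acsl4 (-0.43, adjusted p = 0.052) and Pdk2 (-0.53, adjusted p = 0.0566) lay just outside the threshold on the first array type.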
